A study of Mus musculus with 12 samples.

Results

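The response of murine embryonic fibroblasts to ionizing radiation (IR) was compared between cells with and without Pak1, a kinase activated by the small GTPases Rac and Cdc42. The quantity described throughout is the interaction of genotype and irradiation, which is the response of Pak1-KO cells (KO-IR minus KO) less the response of WT cells (WT-IR minus WT), on the log2 scale. A positive interaction means that a gene rose more, or fell less, in the KO cells. All 14996 probe sets that carried 1 gene symbol were taken, out of 16755 in the table, without regard to their values.

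The cells came from C57Bl6J embryos at day 13.5, either wild type (WT) or with Pak1 ablated in the whole body (KO), and every group was immortalised with SV40 T antigen. T antigen binds and restrains p53, and all 4 groups carried it, the WT controls included. The 4 groups were WT and KO cells without irradiation and WT-IR and KO-IR cells after exposure to a caesium source, with 3 arrays labelled as biological replicates in each. The total dose, the time between exposure and harvest, and the number of separately derived lines per genotype were not given in the sources used here, so an effect of Pak1 and a difference between cell lines cannot be told apart.

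Each value is a log2 level relative to the median of that probe set over the 12 arrays, so a value of 0 is the middle array and no absolute level is known. Array medians lay between -0.02 and 0.02, and arrays of a group correlated with each other at a mean r from 0.836 (KO-IR replicate 1) to 0.917 (WT-IR replicate 2). Pak1 itself was not analysed here, and the genotypes were taken from the labels. The study checked PAK1 protein in the WT and KO cells by western blot. Of 12 fibroblast markers 1 had a called interaction (Pdgfra). Of the 28 probe sets for markers of epithelium, endothelium, macrophages, skeletal muscle and neural cells none was called. Their list medians of the interaction lay between -0.00093 and 0.14. An interaction was called for 1.37% of all probe sets, so no call among 28 is near that share and says little about these markers. The interaction does not compare the untreated genotypes. That comparison is given for the 3 markers of each list with the smallest interaction p, and for no others. KO minus WT was 2.76 for Krt19, 0.26 for Epcam, 0.17 for Kdr, -2.26 for Csf1r and -0.50 for Map2 (limma, adjusted p under 0.05). The fibroblast markers Pdgfra (-2.33), Col3a1 (-1.14) and Col1a2 (-0.56) passed as well. Cldn7 (-0.03), Pecam1 (-0.04), Cdh5 (0.01), Cd68 (-0.03), Itgam (-0.04), Myog (-0.11), Myf5 (-0.06), Ckm (0.06), Sox10 (-0.06) and S100b (-0.15) did not pass.

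As background, p53 is a transcription factor that is held low by the ubiquitin ligase Mdm2 and released after DNA breaks through the kinases ATM and Chk2. It then raises genes that stop the cell cycle (Cdkn1a, Btg2), restrain growth signalling (Sesn2, Ddit4), promote death (Pmaip1, Fas) and end the response (Mdm2, Ppm1d). In parallel, irradiated cells hold back mitosis, and stress kinases act on AP-1 factors such as Jun and Atf3.

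Of 58 probe sets for p53 targets, 37 rose in KO-IR over KO, where 3.38% of all probe sets rose. In WT-IR over WT 1 of the 58 rose, where few probe sets rose at all (0.848%). This list includes genes the study named from these samples. Smaller sets of genes moved in WT cells alone or in opposite directions. An interaction was called at an adjusted p under 0.05 (limma, Benjamini-Hochberg over all probe sets) for 217 of the 14996 probe sets, 185 positive and 32 negative, against 1.37% of all 16755 probe sets tested (1.17% positive and 0.203% negative). With a fold difference of at least 2 as well, 23 remained, 22 positive and 1 negative, against 0.149% of all probe sets (0.143% positive and 0.00597% negative). An unadjusted p under 0.05 was reached by 1144 positive and 549 negative probe sets. The count at the adjusted p fell to 133 without KO replicate 1 and to 123 without WT-IR replicate 2, whereas the count at 2-fold stayed between 21 and 24 whichever array was left out.

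Sorted by which genotype moved in its own response, KO cells alone accounted for 174 of the 217 calls. In 154 (71% of the calls) the gene rose in KO-IR over KO and did not pass the test in WT, with a median interaction of 0.53, a median KO response of 0.48 and a median WT response of -0.05. In 20 the gene fell in KO cells alone. WT cells alone moved in 22, with 11 falling and 11 rising, and in 12 the genotypes moved in opposite directions. A further 5 moved the same way in both, and in 4 (Mvd, Arntl2, Leng8 and Tmub1) neither response passed the test on its own. Without WT-IR replicate 2 these counts were 109 for KO alone, 5 for WT alone and 4 for opposite directions, and without KO-IR replicate 1 they were 188, 25 and 22.

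**Figure D1:**
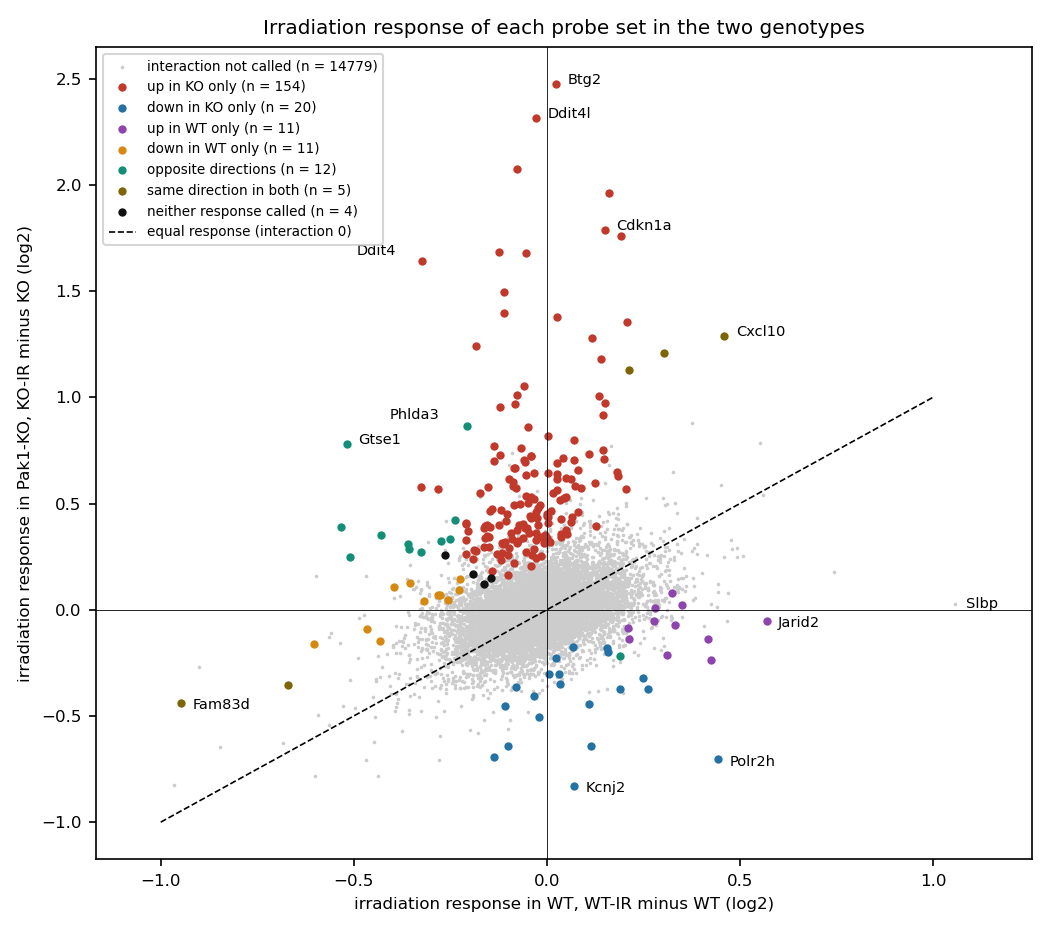
Irradiation response in WT cells (x axis, WT-IR minus WT, log2) and in Pak1-KO cells (y axis, KO-IR minus KO, log2), 1 point per probe set with 1 gene symbol, coloured by which genotype passed the test among the 217 called interactions. The red points are 154 genes that rose in KO cells alone. Their place near a WT response of 0 follows from the sorting, which required that the WT response did not pass the test. The dashed line marks equal responses.

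The responses of the genotypes share no arrays. Of 523 probe sets that rose in KO cells (3.38% of all probe sets rose) and 129 that rose in WT cells (0.848% of all), 40 were in common, which is 7.65% of the first and 31% of the second. Of 453 that fell in KO cells and 256 that fell in WT cells (2.92% and 1.64% of all), 101 were in common, or 22.3% and 39.5%. At 2-fold, 22 named probe sets rose in KO cells (0.143% of all) and 1, Slbp, rose in WT cells (0.00597% of all), and no probe set fell 2-fold in either genotype. In the fit over all 12 arrays 976 named probe sets were called in KO and 385 in WT, but with only the 6 arrays of a genotype in the fit the order turned, with 419 in KO and 494 in WT.

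The largest interaction belonged to Btg2, an antiproliferative p53 target that recruits mRNA deadenylases. Its values were -0.80, -0.83 and -0.73 in WT, -0.81, -0.72 and -0.76 in WT-IR, 0.72, 0.90 and 0.81 in KO, and 3.33, 3.29 and 3.24 in KO-IR. The WT and WT-IR arrays overlapped, while every KO-IR array stood above every KO array, and the interaction was 2.45 ± 0.07 (SE), a 5.47-fold difference (adjusted p = 1.20e-08). Its WT response was 0.02 and its KO response 2.48.

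Ddit4l, an inhibitor of the growth kinase mTORC1, had the second largest interaction. It gave -0.65, -0.71 and -0.74 in WT, -0.71, -0.65 and -0.83 in WT-IR, 0.77, 0.65 and 0.97 in KO, and 2.95, 3.16 and 3.24 in KO-IR, with an interaction of 2.34 ± 0.12 (adjusted p = 2.59e-06). Its paralogue Ddit4, also an inhibitor of mTORC1, read 0.10, 0.07 and 0.37 in WT, -0.25, -0.07 and -0.10 in WT-IR, -0.09, -0.15 and -0.23 in KO, and 1.56, 1.44 and 1.44 in KO-IR. For Ddit4 the untreated KO cells lay below WT, and the KO response of 1.64 stood beside a WT response of -0.32 that did not pass the test (adjusted p = 0.056), giving an interaction of 1.96 ± 0.11 (adjusted p = 3.94e-06). Sesn2, a sestrin that senses leucine upstream of mTORC1, had an interaction of 1.51 ± 0.11 with values of 1.68, 1.84 and 1.77 in KO-IR against 0.27, 0.55 and 0.27 in KO.

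Cdkn1a, which encodes the inhibitor p21 of cyclin-dependent kinases, read -1.55, -1.77 and -1.68 in WT, -1.34, -1.62 and -1.59 in WT-IR, from 1.34 to 1.62 in KO, and 3.21, 3.24 and 3.37 in KO-IR. Its interaction was 1.64 ± 0.13 (adjusted p = 3.73e-05), and its WT and WT-IR arrays overlapped. Mdm2 gave -0.57, -0.73 and -0.63 in WT, -0.53, -0.64 and -0.68 in WT-IR, 0.68, 0.53 and 0.63 in KO, and 1.92, 2.02 and 2.04 in KO-IR, with an interaction of 1.35 ± 0.08 (adjusted p = 6.66e-06). Trp53inp1, a nuclear partner of p53, had an interaction of 1.80 ± 0.11 and a WT response of 0.16, and Ppm1d, a phosphatase that switches the damage signal off, one of 0.64 (adjusted p = 0.000266).

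Among death genes, Pmaip1 (Noxa, a BH3-only protein) had an interaction of 1.73 ± 0.24 (adjusted p = 0.00271), the widest error of the 22 positive genes at 2-fold. Its WT arrays were spread, at -1.23, -0.51 and -1.27, over the WT-IR arrays at -0.89, -1.23 and -1.05, while KO read 0.51, 0.55 and 0.65 and KO-IR 2.35, 2.29 and 2.11. Eda2r, a receptor for ectodysplasin A2, had an interaction of 1.57 ± 0.10 (adjusted p = 8.88e-06). Fas, the death receptor, read 0.20, 0.27 and 0.13 in KO and 0.81, 1.44 and 1.22 in KO-IR, with an interaction of 1.08 ± 0.17 (adjusted p = 0.00792). The Fas call at 2-fold was lost without KO-IR replicate 2. Apaf1, the scaffold of the apoptosome, rose in KO cells by 0.53 with an interaction of 0.48 (adjusted p = 0.000964).

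**Figure D2:**
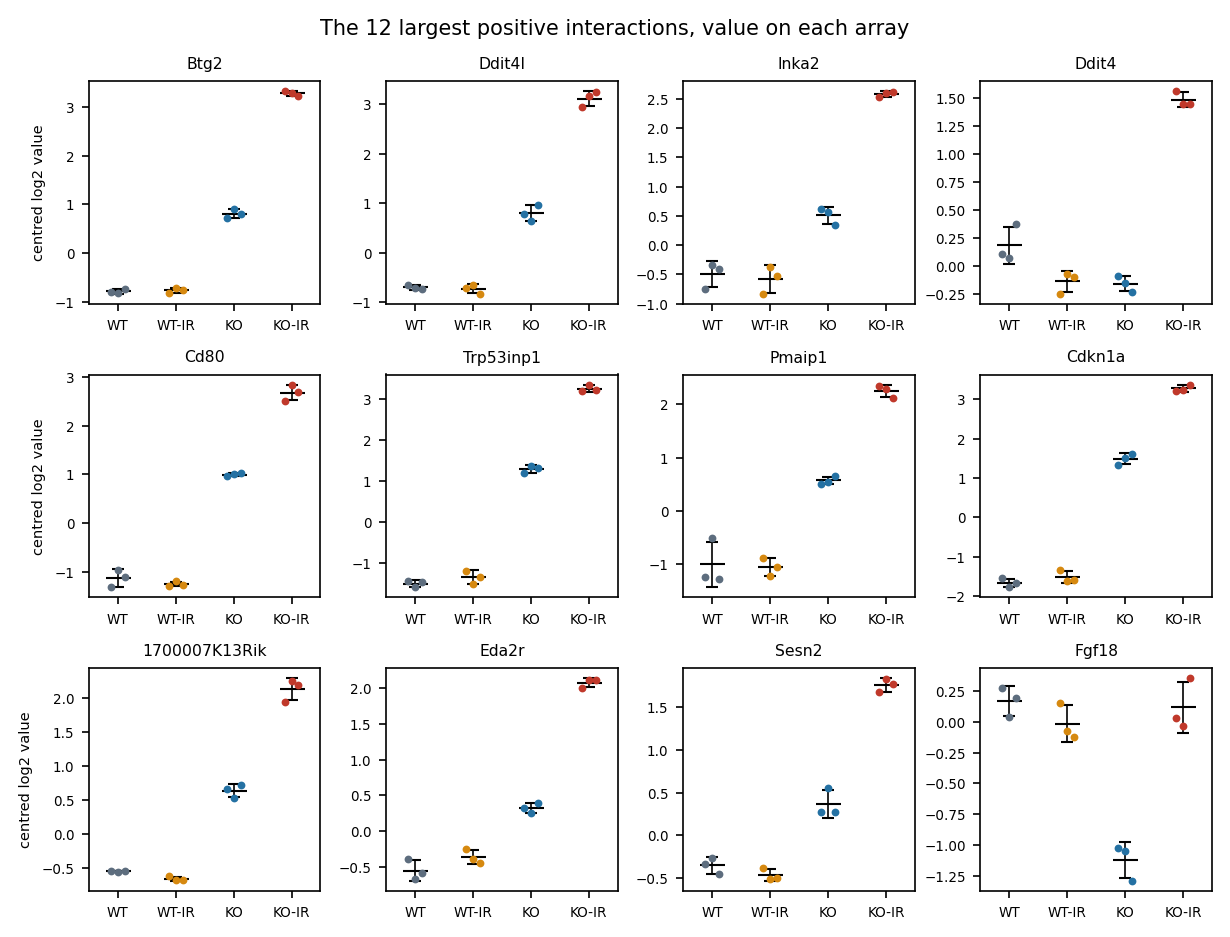
Centred log2 values (y axis) of the 12 largest positive interactions on each of the 12 arrays, by group (x axis), with 3 points per group and a bar for the mean ± SD. The WT responses lie between -0.32 (Ddit4) and 0.19 (Eda2r), while KO-IR lies above KO by between 1.24 (Fgf18) and 2.48 (Btg2) on average.

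Of 58 probe sets for p53 targets (57 genes, a list that includes genes the study named from these samples and is therefore no independent evidence of its direction), 32 had a positive called interaction (55.2%, against 1.17% of all probe sets) and none a negative one. The list median was 0.49 against 0.02 over all probe sets. In KO cells 37 of the 58 rose and 1 fell (Tigar), against 3.38% and 2.92% of all probe sets. In WT cells 1 rose (Slc19a2) and 4 fell (Gtse1, Ckap2, Epha2 and Phlda3), against 0.848% and 1.64% of all. The WT responses of the 58 lay between -0.52 and 0.30, and their KO responses between -0.19 and 2.48. Targets whose interaction did not pass the test included Sesn1 at -0.02, the nucleotide excision repair genes Xpc at 0.02 and Ddb2 at 0.03, Bbc3 (Puma) at 0.32, Ccng1 at 0.36 and the death receptor gene Tnfrsf10b at 0.61 (adjusted p = 0.052).

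The genes of the largest interactions already stood apart between the genotypes without irradiation. KO exceeded WT at an adjusted p under 0.05 in 19 of the 22 positive genes at 2-fold (21.5% of all probe sets were higher and 21.7% lower), by 3.15 for Cdkn1a, 2.80 for Trp53inp1 and 2.12 for Cd80. Ddit4 at -0.34 and Fgf18 at -1.29 were lower in KO, and Lpin1 did not differ beyond its spread, at 0.00. In the p53 list 36 of 58 probe sets were higher and 9 lower in untreated KO cells. This contrast shares the WT and KO arrays with the interaction, and a high KO level lowers the interaction by construction, so the values are given side by side and not related to each other.

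Sequence around the start sites was read because members of the p53 list moved together. The p53 response element, made of 2 half-sites of 10 bases, was searched on both strands in RefSeq promoters (GRCm38.p6, 250 bases before to 50 after the start), with the 4-base core of each half-site exact and up to 3 mismatches elsewhere. It was found in 7 of 157 genes with a positive interaction and a promoter in the table (4.46%), in 2 of 18 at 2-fold (11.1%), in none of 24 with a negative interaction, and in 75 of all 11869 genes (0.632%). The 7 elements are given 5′ to 3′ with the cores in capitals, since they set these promoters apart from most others. A match is a description of the letters, and no binding was measured.
Cdkn1a: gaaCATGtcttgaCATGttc
Gtse1: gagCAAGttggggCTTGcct
Mab21l3: agcCTTGctcagaCATGaac
Zfp365: agaCTAGgctgggCAAGact
Aen: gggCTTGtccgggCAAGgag
Ckap2: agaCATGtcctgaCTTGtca
Depdc7: gggCTAGtaccgaCTAGcac

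The Cdkn1a and Gtse1 elements each carried 1 mismatch, and these genes differed in WT cells, with a WT response of 0.15 for Cdkn1a and -0.52 for Gtse1. Their windows are printed whole because they belong to the only genes at 2-fold with an element, on the plus strand of chr17:29090729-29091028 and chr15:85859696-85859995, with the element in capitals.
Cdkn1a window: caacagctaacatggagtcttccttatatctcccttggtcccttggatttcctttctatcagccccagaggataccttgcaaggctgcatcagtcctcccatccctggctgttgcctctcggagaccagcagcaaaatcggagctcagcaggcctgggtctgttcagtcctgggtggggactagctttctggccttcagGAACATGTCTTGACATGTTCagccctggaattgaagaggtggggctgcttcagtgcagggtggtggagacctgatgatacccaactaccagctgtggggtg
Gtse1 window: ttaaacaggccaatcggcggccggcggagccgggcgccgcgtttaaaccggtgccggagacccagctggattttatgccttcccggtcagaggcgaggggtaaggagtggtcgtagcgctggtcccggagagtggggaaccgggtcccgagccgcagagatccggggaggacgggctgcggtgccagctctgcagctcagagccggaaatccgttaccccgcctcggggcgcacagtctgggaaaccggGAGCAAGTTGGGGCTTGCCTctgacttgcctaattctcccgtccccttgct

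Of the 185 positive calls 153 lay outside the p53 list, whereas at 2-fold 15 of the 22 were in the list and 7 outside it. The list was not complete, so a gene outside it may still be a p53 target. Inka2, an inhibitor of the related kinase Pak4, had the largest of these. It gave -0.75, -0.34 and -0.40 in WT, -0.83, -0.37 and -0.53 in WT-IR, 0.61, 0.57 and 0.34 in KO, and 2.52, 2.60 and 2.62 in KO-IR, and the interaction was 2.15 ± 0.18 (adjusted p = 6.23e-05). The gene 1700007K13Rik followed, with an interaction of 1.61 ± 0.10 and with WT-IR arrays just below the WT arrays.

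Fgf18, a secreted fibroblast growth factor, showed another pattern. Its values were 0.28, 0.04 and 0.19 in WT, 0.16, -0.07 and -0.12 in WT-IR, -1.03, -1.05 and -1.29 in KO, and 0.03, -0.03 and 0.36 in KO-IR. Untreated KO cells were thus the only low group, and KO-IR arrays overlapped WT arrays, with an interaction of 1.43 ± 0.16 (adjusted p = 0.000796). Fst, the activin antagonist follistatin, had a like pattern, with KO at -0.78, -0.78 and -0.55, the other groups between -0.05 and 0.26, and an interaction of 0.77 ± 0.11 (adjusted p = 0.00409).

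The other genes of this kind at 2-fold were Hyal1, a lysosomal hyaluronidase (1.16), Ddias, a suppressor of apoptosis after DNA damage (1.11), Vnn1, a pantetheinase (1.09), and Lpin1, a phosphatidate phosphatase (1.04). Lpin1 read between -0.23 and 0.04 on all 9 arrays of WT, WT-IR and KO, and 1.10, 1.05 and 1.06 in KO-IR, so that the irradiated KO cells alone stood apart (adjusted p = 2.66e-05). Lpin1, Polk at 1.05 and Phlda3 at 1.07 lay just inside the 2-fold limit, and Rap2b at 0.92, Dennd2c at 0.92 and Tbc1d8 at 0.91 just outside it. Polk encodes a translesion polymerase. With the excision nuclease gene Ercc5 (0.75) it was 1 of 2 called among 45 probe sets for damage sensing and repair. Both were positive (4.44%, against 1.17% of all probe sets), and the list median was -0.02. Polk was also in the p53 list.

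Of 35 probe sets for AP-1, immediate early and Dusp genes, 7 had a positive called interaction and none a negative one (20%, against 1.17% of all probe sets), with a list median of 0.17. Atf3, a factor of the stress response, read between -0.21 and 0.12 in WT, WT-IR and KO and 1.13, 0.91 and 0.83 in KO-IR, with an interaction of 0.87 ± 0.11 (adjusted p = 0.00197). Dusp1, a phosphatase of MAP kinases, rose in KO cells by 0.58 with a WT response of -0.15 and an interaction of 0.73 (adjusted p = 0.00156). Junb had an interaction of 0.59, with untreated KO cells 1.08 below WT, and a low KO level raises the interaction by construction. Ier5 (0.42), Fosl1 (0.41) and Klf6 (0.30) passed by a small margin, with adjusted p between 0.039 and 0.049, while Fos at 0.54 (adjusted p = 0.094) did not pass.

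Of 27 probe sets for the Notch pathway 3 passed, all positive (11.1%, against 1.17% of all probe sets), and the list median was 0.11. The receptor gene Notch1 read 0.57, 0.57 and 0.52 in KO and 0.98, 0.97 and 1.06 in KO-IR, and -0.58, -0.52 and -0.53 in WT beside -0.68, -0.67 and -0.60 in WT-IR, with an interaction of 0.55 ± 0.06 (adjusted p = 0.000354). Hes1, its repressor target, had an interaction of 0.47 and Notch3 one of 0.36, whereas the glycosyltransferase gene Lfng stood at -0.43 (adjusted p = 0.077). The Notch1 call held in all 19 alternatives, while the Hes1 call was lost in 7 of them and the Notch3 call in 12.

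**Figure D3:**
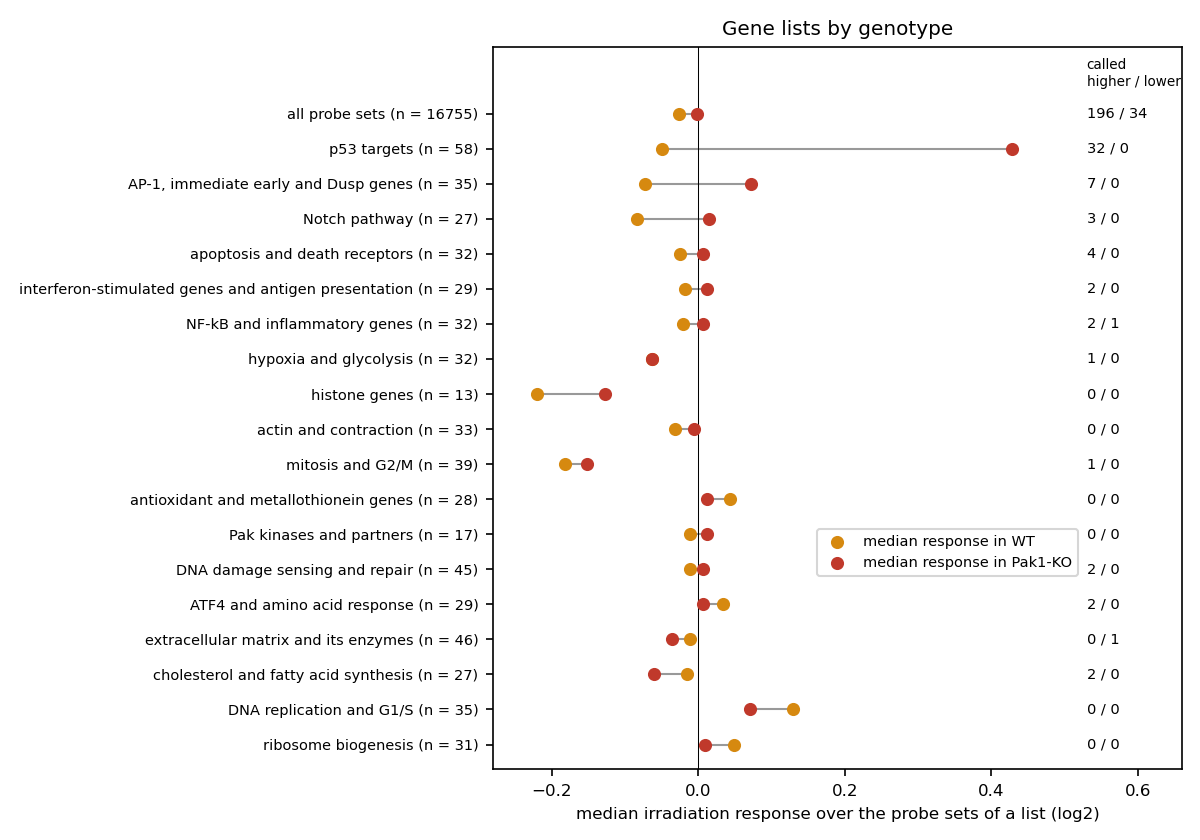
Median irradiation response over the probe sets of each gene list (x axis, log2), in WT cells (orange) and in Pak1-KO cells (red), with lists in order of their median interaction below the row for all probe sets and the number of positive and negative called interactions at the right. The p53 targets stand at -0.05 in WT and 0.43 in KO, and the medians of the mitosis, histone and replication lists have the same sign in both genotypes.

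Of 39 probe sets for mitosis and G2/M, 10 fell in KO cells (2.92% of all probe sets fell) and 13 in WT cells (1.64% of all), none rose in either, and the rest did not pass the test. The list medians were -0.15 and -0.18. This list had 1 called interaction, a positive one (2.56%, against 1.17% of all probe sets). It was Fam83d, a spindle protein, which fell in both. Its arrays read 0.16, 0.37 and 0.44 in WT and -0.63, -0.64 and -0.59 in WT-IR, against 0.20, 0.25 and 0.23 in KO and -0.24, -0.24 and -0.16 in KO-IR, so that the fall was 0.95 in WT and 0.44 in KO (interaction 0.51 ± 0.09, adjusted p = 0.0132).

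Of 35 probe sets for replication and G1/S, 6 rose in KO (3.38% of all probe sets rose) and 7 rose in WT (0.848% of all), and the others did not pass the test. None had a called interaction (1.37% of all probe sets had one), and the median interaction was -0.05. Slbp, which binds histone mRNA, was the only named gene that rose 2-fold in WT cells. It read -1.03, -1.22 and -1.18 in WT and -0.44, 0.46 and -0.28 in WT-IR, with KO at 0.30, 0.09 and 0.32 and KO-IR at 0.44, 0.44 and -0.09. WT-IR replicate 2 stood well above the other two WT-IR arrays, and the interaction of -1.03 ± 0.29 did not pass the test (adjusted p = 0.149). Of 13 histone probe sets 4 fell in KO (2.92% of all probe sets fell) and 3 in WT (1.64% of all). None of the 13 had a called interaction, which is near the 1.37% of all.

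The gene lists overlap, so their shares are not separate counts. Of 32 probe sets for apoptosis and death receptors, 4 had a positive called interaction (12.5%, against 1.17% of all probe sets), namely Eda2r, Apaf1, Pmaip1 and Fas. Eda2r, Pmaip1 and Fas were also in the p53 list, as were Sesn2 and Ddit4, which are counted in lists below. Of 27 for cholesterol and fatty acid synthesis 2 were positive (7.41%, Insig1 and Mvd), and each of these calls was lost in 13 of 19 alternatives. The interferon and antigen presentation list had 2 of 29 (6.9%, Cxcl10 and Tap1) and the ATF4 list 2 of 29 (6.9%, Sesn2 and Atf3). For NF-kB and inflammatory genes 2 of 32 were positive (6.25%, Lif and Nfkbia) and 1 was negative (Cxcl5). For hypoxia and glycolysis 1 of 32 was positive (3.12%, Ddit4), and for extracellular matrix 1 of 46 was negative (Col5a2). Over all probe sets 1.17% were positive and 0.203% negative. None was called for ribosome biogenesis, antioxidant and metallothionein genes, actin and contraction, or Pak kinases and partners. Pak4 stood at 0.19 and Pak2 at 0.12, and neither passed the test. With 1.37% of all probe sets called, no call in lists of this size is near the share over all. The median interactions of all these lists lay between -0.06 (ribosome biogenesis) and 0.06 (apoptosis).

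In 3 genes both genotypes rose and KO cells rose further. Cxcl10, an interferon-induced chemokine, read -1.61, -1.64 and -1.75 in WT, -1.07, -1.28 and -1.27 in WT-IR, 1.07, 1.07 and 1.37 in KO, and 2.43, 2.48 and 2.47 in KO-IR. The groups did not overlap in either genotype, and the responses were 0.46 in WT and 1.29 in KO (interaction 0.83 ± 0.12, adjusted p = 0.00333). The thiamine transporter gene Slc19a2 rose by 0.30 and 1.21, and Dennd2c, an activator of Rab GTPases, by 0.21 and 1.13.

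Opposite movement was seen in 12 genes, 11 of which rose in KO and fell in WT. Gtse1, which encodes a microtubule-binding protein that also binds p53, read -0.29, -0.34 and -0.25 in WT, -0.73, -0.85 and -0.87 in WT-IR, 0.25, 0.32 and 0.28 in KO, and 1.03, 1.08 and 1.07 in KO-IR. No array of one group overlapped another, and the WT fall of 0.52 and the KO rise of 0.78 gave an interaction of 1.30 ± 0.06 (adjusted p = 1.41e-06). Phlda3, an inhibitor of Akt, fell by 0.21 in WT and rose by 0.87 in KO (adjusted p = 2.59e-06).

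Jun, the AP-1 factor, gave -0.30, -0.43 and -0.34 in WT, -0.77, -0.81 and -0.78 in WT-IR, 0.30, 0.39 and 0.47 in KO, and 0.65, 0.85 and 0.73 in KO-IR, with an interaction of 0.78 ± 0.08 (adjusted p = 0.000478). Rap2b, a Ras-like GTPase, fell by 0.53 in WT and rose by 0.39 in KO, and its KO-IR arrays were spread from 0.41 to 0.80. Ccng2, an unconventional cyclin, fell by 0.33 and rose by 0.27, and Ckap2, a spindle protein, fell by 0.36 and rose by 0.29. The others were Prss22, Mettl21a, Kifc5b, Kank3 and Pdgfa, with interactions between 0.58 and 0.76. Plekhh3 was the 1 gene of the reverse kind, rising by 0.19 in WT and falling by 0.22 in KO.

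Genes that fell in WT cells alone had smaller interactions, from 0.28 to 0.50. Pnrc2, an adaptor of mRNA decay, read -0.32, -0.40 and -0.41 in WT and -0.90, -1.03 and -1.01 in WT-IR, against 0.51, 0.55 and 0.52 in KO and 0.40, 0.38 and 0.32 in KO-IR. The WT response was -0.60 and the KO response -0.16 (adjusted p = 0.05, not passed), and the interaction was 0.44 ± 0.06 (adjusted p = 0.00337). Ccnf, an F-box cyclin, fell by 0.40 in WT beside 0.11 in KO, and Errfi1, an inhibitor of the EGF receptor, fell by 0.47 beside -0.09. The rest were Olfr1441, Rab39b, Epha2, Cela1, Hoxa10, Cypt1, Klf6 and Cdkn2b, the gene of the cyclin-dependent kinase inhibitor p15. For Epha2 a second probe set gave an interaction of 0.19 that did not pass.

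The 11 genes that rose in WT cells alone had interactions from -0.24 to -0.67. Jarid2, a cofactor of the Polycomb complex PRC2, read 0.29, 0.26 and 0.25 in WT and 0.81, 0.86 and 0.84 in WT-IR, while KO at -0.35, -0.31 and -0.25 overlapped KO-IR at -0.27, -0.32 and -0.47. Its interaction was -0.62 ± 0.07 (adjusted p = 0.000875). Dact1, a modulator of Wnt signalling, gave 0.55, 0.57 and 0.55 in WT, 0.99, 0.99 and 0.93 in WT-IR, -0.55, -0.70 and -0.67 in KO, and -0.86, -0.71 and -0.76 in KO-IR, with an interaction of -0.56 ± 0.07 (adjusted p = 0.00153).

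Pdgfra, the receptor for platelet-derived growth factor A and a fibroblast marker, rose in WT cells from 1.11, 1.12 and 1.14 to 1.41, 1.52 and 1.44. In KO cells it read -1.11, -1.29 and -1.23 without and -1.34, -1.30 and -1.20 with irradiation, groups that overlapped, and its interaction was -0.40 ± 0.07 (adjusted p = 0.0196). The gene of its ligand, Pdgfa, moved the other way, from 0.20, 0.04 and 0.02 in WT to -0.18, -0.15 and -0.16 in WT-IR, and from -0.04, -0.02 and -0.07 in KO to 0.27, 0.26 and 0.34 in KO-IR (interaction 0.58 ± 0.07, adjusted p = 0.000964). Ahr, the aryl hydrocarbon receptor, rose by 0.31 in WT beside -0.21 in KO, Mrfap1 by 0.43 beside -0.24, and the collagen gene Col5a2 by 0.21 beside -0.14. The others were Adamts1, Polq, Slc25a37, Ank2 and Gfra1.

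**Figure D4:**
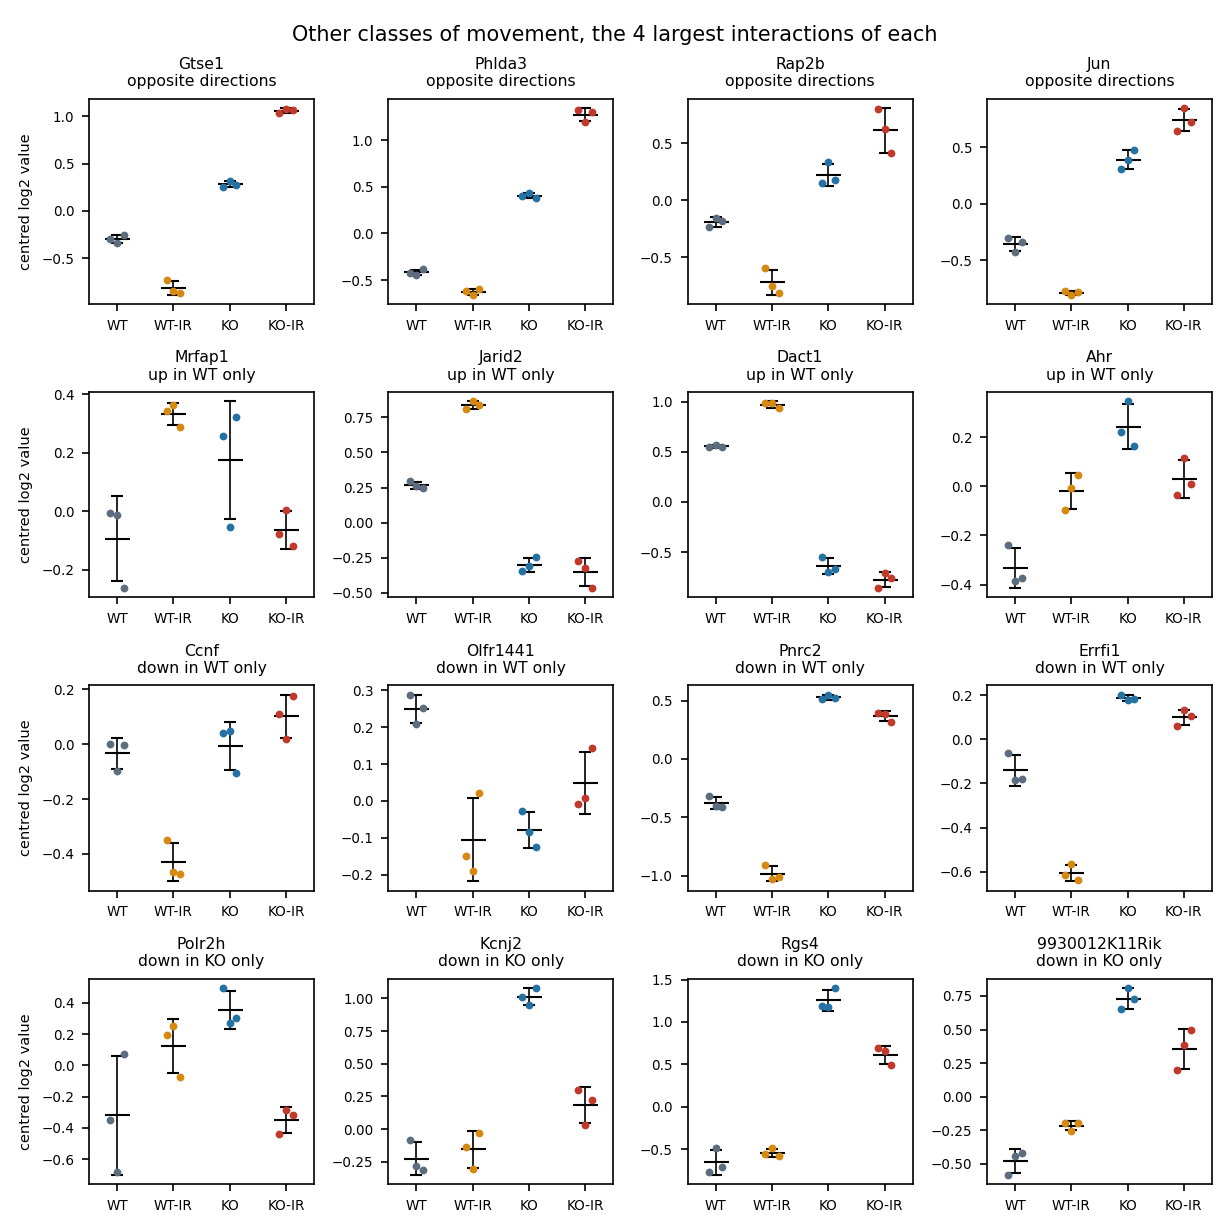
Centred log2 values (y axis) on each array by group (x axis) for the 4 largest interactions in each of 4 classes, 1 class per line of panels, with 3 points per group and a bar for the mean ± SD. WT-IR points do not overlap WT points in the first 3 lines of panels, and in the last line KO-IR points lie below KO points. The classes were sorted by these same responses.

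Among the 20 genes that fell in KO cells alone, Kcnj2, an inward rectifier potassium channel, read 1.01, 0.95 and 1.08 in KO and 0.30, 0.03 and 0.23 in KO-IR, while WT at -0.09, -0.28 and -0.31 overlapped WT-IR at -0.13, -0.31 and -0.03. Its interaction was -0.90 ± 0.12 (adjusted p = 0.00294). Rgs4, a GTPase-activating protein for heterotrimeric G proteins, gave 1.19, 1.17 and 1.40 in KO and 0.69, 0.65 and 0.49 in KO-IR, with an interaction of -0.76 ± 0.12 (adjusted p = 0.00697). Both genes fell in KO-IR toward the WT levels, which stayed lower.

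Pcdh18, a protocadherin of cell adhesion, had the smallest adjusted p of the negative calls (0.000246). It read 0.12, 0.16 and 0.12 in KO and -0.51, -0.57 and -0.61 in KO-IR, with WT at 0.09, 0.04 and 0.10 and WT-IR at -0.04, -0.09 and -0.06, for an interaction of -0.56 ± 0.05. In the same class, Edn1, the vasoconstrictor endothelin, fell by 0.64 in KO beside -0.10 in WT, the neutrophil chemokine Cxcl5 by 0.51 beside -0.02, tissue factor (F3) by 0.35 beside 0.03 in WT, and the neurotrophin Bdnf by 0.30 beside 0.00 in WT.

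The 1 negative call at 2-fold was a probe set assigned to Polr2h, an RNA polymerase subunit, at -1.15 ± 0.22 (adjusted p = 0.0223). Its WT arrays were spread at -0.35, -0.68 and 0.07 over the WT-IR arrays at 0.20, 0.25 and -0.07, with KO at 0.50, 0.27 and 0.30 and KO-IR at -0.44, -0.29 and -0.32. A second probe set for Polr2h gave an interaction of 0.16 that did not pass. Polr2h is annotated on chromosome 16, while the neighbours of the called probe set in the order of the identifiers belonged to chromosome 12, so the assignment of this probe set to Polr2h is uncertain. The call was also lost without any one of 7 of the 12 arrays (WT replicates 1 and 2, KO replicate 1, WT-IR replicates 1 and 2, and KO-IR replicates 2 and 3).

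**Figure D5:**
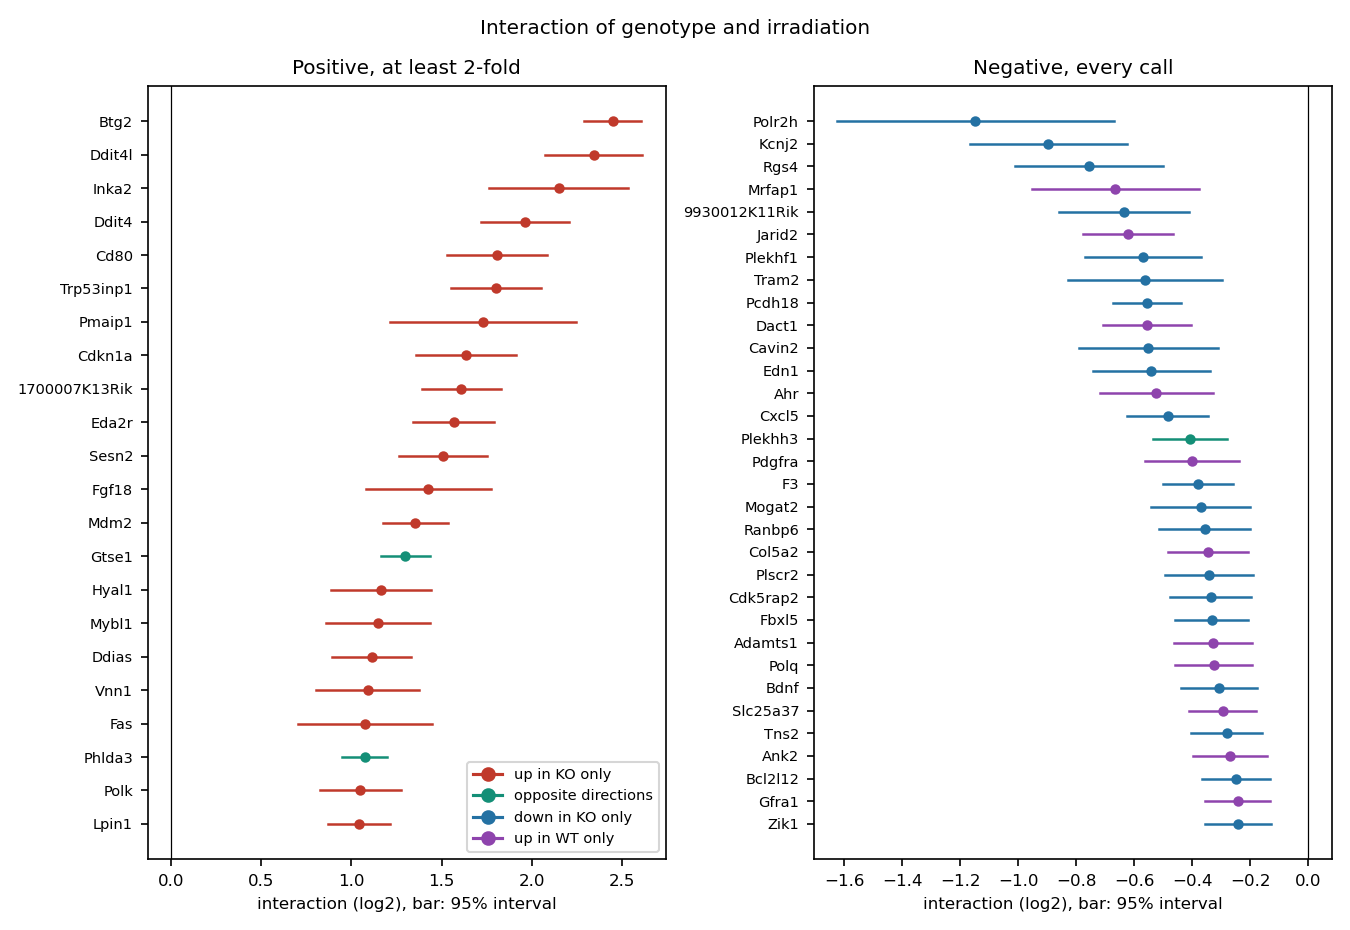
Interaction of genotype and irradiation (x axis, log2) for the 22 positive genes at 2-fold (left) and all 32 negative genes (right), with points for the estimate, bars for its 95% interval from the fit, and colours for the class of movement. Positive values run from 1.04 (Lpin1) to 2.45 (Btg2), and negative values from -0.24 to -1.15 (Polr2h), whose bar is the longest of the negative genes.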

How the data were processed

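RNA was measured by the authors on Affymetrix Mouse Exon 1.0 ST arrays that they normalized with Gene Spring GX. Deposited values are log2 levels between -3.30 and 3.37, and the authors had centred every probe set at its median across arrays (largest distance from 0, 5e-07). The summarisation of probes and any background correction were not given in the sources used here. Dim probe sets could therefore not be filtered out. The number of arrays limits the precision, and since nothing beyond the labels says that replicates were separate cultures, a p-value reflects only how far these arrays differ among themselves.

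All 16755 probe sets were fitted as 4 group means in R 4.3.3 with limma 3.58.1 (lmFit, eBayes, 8 residual and 3.48 prior degrees of freedom), with Benjamini-Hochberg adjustment over all of them. The authors used an unpaired t-test with the same correction. A genotype was taken to move when its own response passed an adjusted p of 0.05. Of the probe sets with 1 symbol, 14941 matched RefSeq (GRCm38.p6), and 135 symbols had several probe sets. A further 1019 probe sets with several symbols and 740 with none were fitted and not named, and 13 of these were called. Tested on simulated data of the 16755 probe sets, the interaction recovered 82.1% of 67 changes of 1.5-fold, 95.5% of 67 of 2-fold and 100% of 66 of 4-fold, with 12 unchanged probe sets called. The simulated noise was independent and equal across arrays, and only KO-IR was moved. Real arrays differed in quality, so these rates check the fit and are not error rates of these data. Figures were drawn with matplotlib 3.10.9 in Python 3.11.15.

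The genes and lists were chosen with earlier results of these data known. Named genes were the 12 largest interactions of each sign at 2-fold, the 6 largest positive outside the p53 list, the 4 largest of each class, the 3 with the smallest p of each list, and the genes the study names for irradiated cells. Further called genes are named after their values were seen.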

Additional observations from a re-analysis of the deposited data

Results flagged for a closer look

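With 3 arrays per group no single array could be tested as standing apart from its group. The irradiation responses of the genotypes differed, by the test of the interaction itself, for 185 positive and 32 negative probe sets. Those at 2-fold that rose in KO cells alone were Btg2 (interaction 2.45), Ddit4l (2.34), Inka2 (2.15), Ddit4 (1.96), Cd80 (1.81), Trp53inp1 (1.80), Pmaip1 (1.73), Cdkn1a (1.64), 1700007K13Rik (1.61), Eda2r (1.57), Sesn2 (1.51), Fgf18 (1.43), Mdm2 (1.35), Hyal1 (1.16), Mybl1 (1.15), Ddias (1.11), Vnn1 (1.09), Fas (1.08), Polk (1.05) and Lpin1 (1.04).

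The genotypes moved in opposite directions for Gtse1 (1.30), Phlda3 (1.07), Rap2b (0.92), Jun (0.78), Prss22 (0.76), Mettl21a (0.67), Kifc5b (0.66), Ckap2 (0.64), Ccng2 (0.60), Kank3 (0.60), Pdgfa (0.58) and Plekhh3 (-0.41). The probe set assigned to Polr2h stood at -1.15.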

How the results depend on the processing

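No called gene changed the sign of its interaction under any of 19 alternatives. Some of these change only the variance or the probe sets tested and leave the estimate as it was. A change of sign was not possible there, and the called genes had been chosen for their interaction. Of the 217 calls 98 were kept in all 19 alternatives. Of the 23 at 2-fold 12 were kept at 2-fold in all (Btg2, Ddit4l, Inka2, Ddit4, Cd80, Trp53inp1, Pmaip1, 1700007K13Rik, Eda2r, Sesn2, Fgf18 and Gtse1). Without each array in turn, calls at 2-fold ranged from 21 to 24, at the adjusted p from 123 (without WT-IR replicate 2) to 247 (without KO-IR replicate 1), responses from 542 (without KO replicate 1) to 1409 in KO and from 119 (without WT-IR replicate 2) to 610 in WT, and classes from 107 to 188 for KO alone, 5 to 25 for WT alone and 4 to 22 for opposite directions. The KO response also moved by over 1.5 times without KO replicate 2 (639) and KO-IR replicates 2 (641) and 3 (566), and the WT response without WT replicates 1 (238), 2 (203) and 3 (130) and WT-IR replicate 1 (163).

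With no moderation of the variance 141 were called, and with the methods' t-test 93 rose or fell in KO and 1 in WT, so that the classes held 44, 0 and 0 (KO alone, WT alone, opposite). With array weights, which gave KO replicate 1 a weight of 4.54 and KO-IR replicate 1 one of 0.356, calls were 593 (440 positive, 153 negative), responses 2365 in KO and 1502 in WT, and classes 375, 118 and 45. Quantile normalization left 13 at 2-fold and called 179 (129 positive, 50 negative, against 185 and 32), with 294 rises and 269 falls in WT against 129 and 256. Cdkn1a, Mdm2, Fas, Polk, Phlda3, Hyal1, Mybl1, Ddias, Vnn1 and Lpin1 then fell under 2-fold, and the cause was not tested. With a fold threshold of 1.5, 79 passed (73 positive, 6 negative), and the classes held 65, 3 and 0 when a response also had to reach 1.5-fold. With only the 6 arrays of a genotype in the fit, 419 were called in KO and 494 in WT, so that the order of the genotypes turned against 976 and 385 in the fit over all arrays.

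Values near 0 that did not pass in these settings changed sign for Krt19 (-0.0411 after quantile normalization), Pecam1 (-0.00885 with array weights) and Myf5 (0.0219 with array weights). Without each array in turn, Myog ranged from -0.0394 to 0.198 and Myf5 from -0.111 to 0.0480.

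Deviations of same-numbered arrays from their group means correlated between -0.144 and 0.211 (mean -0.0054, 18 pairs). Those of other pairs correlated between -0.285 and 0.226 (mean 0.00265, 36 pairs). No pairing by replicate number was seen, but these correlations cannot show whether same-numbered arrays were processed together. With the replicate block 22 were called at 2-fold, 181 at the adjusted p, 856 and 268 in the KO and WT responses, and 149, 15 and 8 by class. Probe brightness relative to background is unknown, so the precision of single probe sets rests on 3 arrays a group.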
